A study of Cucurbita moschata with 6 samples.

Results

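The photoreceptor genes of pumpkin (Cucurbita moschata) and the PIF transcription factors that act directly below the phytochromes were described in the hypocotyl, the seedling stem below the cotyledons. Genes were taken by product name from the deposited table of 32205 genes, wherever the name held a phytochrome from A to E, a cryptochrome, a phototropin, a PIF number or a phytochrome-interacting protein. This gave 30 genes, which are 7 phytochromes, 4 cryptochromes, 5 phototropins, 12 PIF factors, 1 F-box protein associated with phytochrome A and 1 ankyrin-repeat protein that binds phytochrome. The groups are called SR and SCK in the labels, with 3 libraries each, and neither name is spelled out. The series design states a treatment and a control. SR is read here as the treated group and SCK as the control, because CK customarily stands for a control in agronomy. A far-red treatment of 120 s is written in the treatment field of all 6 samples, so the labels do not say how the groups differed in light. Seedlings of both groups came from a registered seed source and were grown at 28 °C in light for 14 h and at 18 °C in darkness for 10 h until the cotyledons were open. The question put to these data is which receptor and PIF transcripts differ between treated and control hypocotyls.

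Phytochromes switch between a red-absorbing and a far-red-absorbing form. In Arabidopsis, phytochrome A is degraded in light and mediates responses to far-red light, while phytochromes B to E are light-stable and sense the ratio of red to far-red. Active phytochrome B binds PIF proteins and promotes their turnover, so light rich in far-red lets PIF proteins accumulate and the hypocotyl elongate. Cryptochromes are blue-light receptors, of which cryptochrome 1 restrains hypocotyl growth, and phototropins are blue-light receptor kinases that steer bending towards light. Transcript levels, measured here, are not protein or photoreceptor activity.

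Cryptochrome genes, part of the phototropins and the most abundant PIF genes were lower in SR, while phytochrome A showed no called change. Of 26 members with enough signal to be tested, 9 fell and 0 rose in SR. The falls were 3 cryptochromes, 2 phototropins, 2 phytochromes, a PIF1-like and a PIF4-like gene. That is 34.6% of the tested members called lower, against 7.16% of all 23509 tested genes. The share called higher among all tested genes was 7.2%. The median log2 change of the tested members was -0.24, beside 0.01 over all tested genes, and 20 of 26 values were below 0. Calls are from edgeR's quasi-likelihood test, with a Benjamini-Hochberg adjusted p under 0.05 over all tested genes. At an unadjusted p under 0.05, 12 members were lower (16% of all tested genes were) and 2 were higher (17.3% of all tested genes were). DESeq2 called 11 members lower (12.7% of all tested genes were) and 0 higher (13% were). Limma called 6 members lower and 0 higher on log2(FPKM + 1), where 3276 of all tested genes were called in either direction. On log2(FPKM + 0.1) it called 3 lower and 0 higher, with 2748 of all tested genes called.

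**Figure D1:**
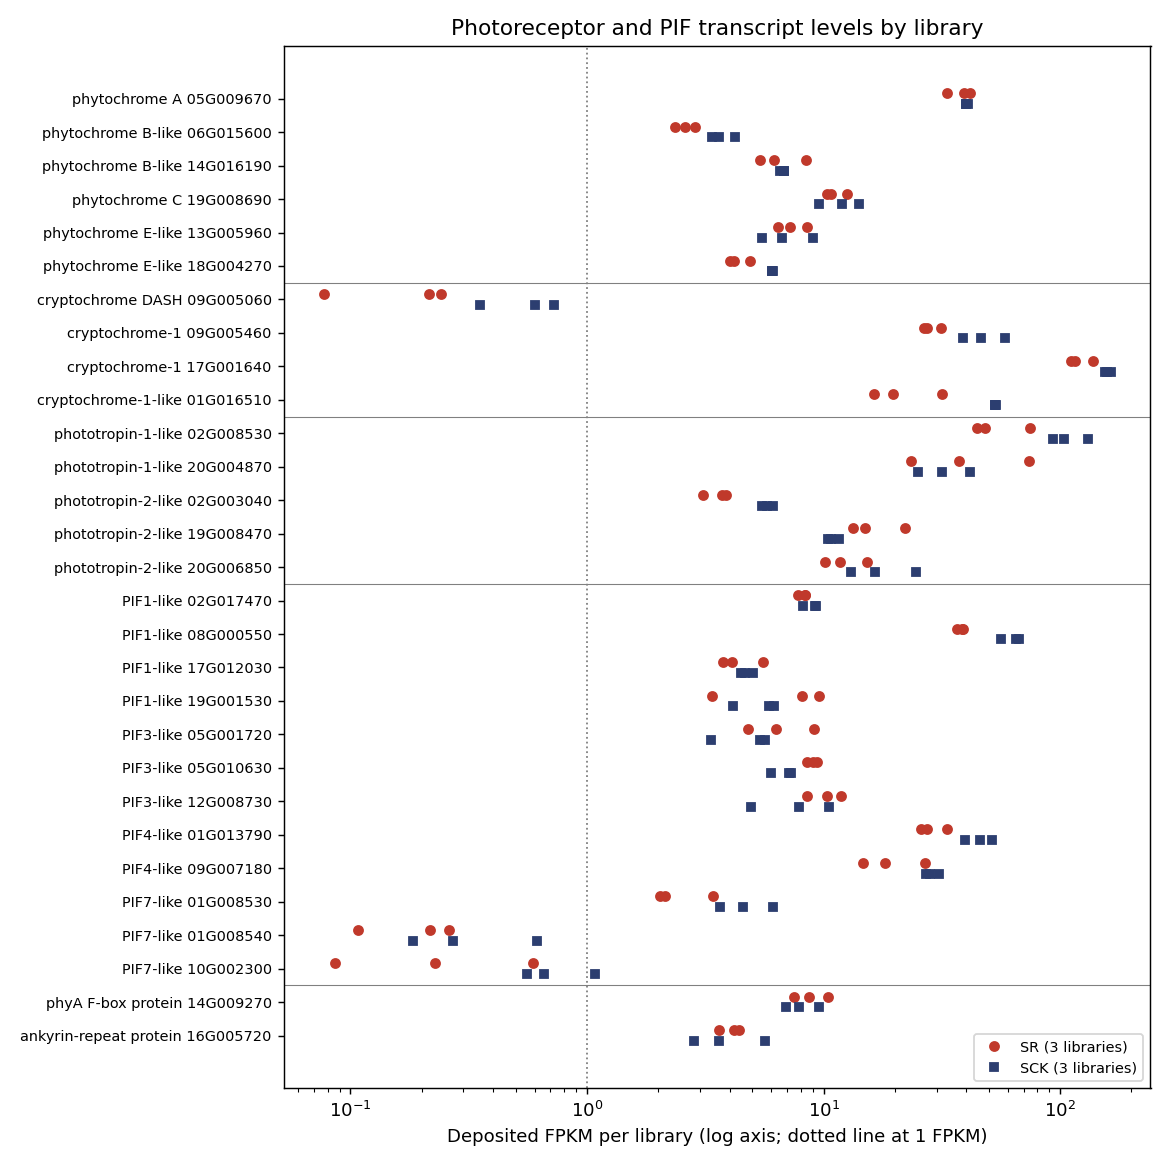
Deposited FPKM (log axis) of the 29 members with any reads, by library, with SR as circles above SCK squares for each gene. Levels span from below 1 FPKM for cryptochrome DASH to between 111 and 164 FPKM for cryptochrome-1 on chromosome 17, and SR lies wholly below SCK in each tested cryptochrome gene.

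Library totals ran from 52300725 to 72356397 deposited counts. Levels are deposited FPKM, which scale reads by transcript length and library size, so genes can be compared per length. Fold changes are edgeR log2 values ± SE with TMM scaling, which the FPKM values do not carry. Scaling by library totals alone shifts the median of all tested genes from 0.01 to 0.14 and leaves 17 of 26 members below 0. Over all tested genes 1692 were called higher and 1683 lower, and with library totals alone 2602 higher and 1155 lower. Where SCK replicates 1 and 2 were 2-fold or more apart, which held for 1596 genes, the value of SCK replicate 3 was intermediate in 93.6%. The like share was lower for each other library within its group, from 25.4% for SCK replicate 2 to 77.5% for SR replicate 3. With no 2-fold condition, SCK replicate 3 was intermediate in 14 of the 26 tested members, and SR replicate 1 also in 14. The count over members and the share over genes are therefore not comparable. Without SCK replicate 3 edgeR called 0 of 23509 genes. It then had 11 members lower and 0 higher at an unadjusted p under 0.05, against 11.7% and 11.9% of all tested genes. DESeq2 without that library, an alternative chosen after seeing the data, called 10 members lower, among them all 9 above, against 7.77% of all tested genes, and 0 higher, against 7.57%. Limma then called 0 members. With all 6 libraries, p-values and SE take SCK replicate 3 as independent of SCK replicates 1 and 2, which was not tested. Were that library not independent, these p-values and SE would be too small. The labels do not say that replicates came from separate plants, and p-values here reflect library-to-library spread that may be technical. In bulk tissue, fewer cells of a type and less RNA per cell cannot be told apart. Genes of photosynthetic cells, named for antenna proteins and the Rubisco small subunit, summed to 7938 to 9835 FPKM in SR and 9754 to 16183 FPKM in SCK. Of 26 tested genes of that list 10 fell and 0 rose, with 0 higher also at an unadjusted p under 0.05 and by DESeq2, and 1 of its 29 genes was at a count of 0 in each library. Xylem genes summed to 92.2 to 140 FPKM in SR and 68.3 to 81.6 FPKM in SCK, with 5 of 28 at 0 in each library, and 3 of 13 tested rose and 0 fell (0 lower also at an unadjusted p under 0.05 and by DESeq2). Root genes summed to 109 to 123 FPKM in SR and 85.1 to 105 FPKM in SCK, and 1 of 10 tested rose. Phloem genes summed to 3616 to 6152 FPKM in SR and 4277 to 4528 FPKM in SCK, and 6 of 34 tested fell and 1 rose. Shoot meristem genes summed to 607 to 695 FPKM in SR and 553 to 630 FPKM in SCK, and 1 of 21 tested fell and 2 rose. Of all tested genes 7.16% were called lower and 7.2% higher. The tissue label has no marker list of its own here, and the part of cell composition in the results below was not tested.

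Phytochrome transcripts were dominated by phytochrome A in both groups. Phytochrome A (CmoCh05G009670, chromosome 5, 7775625 to 7781005, minus strand) had 39.2, 41.6 and 33.2 FPKM in SR replicates 1, 2 and 3, and 40.1, 40.1 and 40.7 FPKM in SCK replicates 1, 2 and 3. The SR values lay on both sides of the SCK values, with a log2 change of -0.22 ± 0.12 (adjusted p = 0.251). It made up 52.9% to 55.7% of the summed phytochrome level in SR libraries and 52.7% to 53.9% in SCK libraries. A second gene named phytochrome A-like (CmoCh12G006390, chromosome 12) had a count of 0 in all 6 libraries, though how reads were divided between similar copies is not stated in the sources used here.

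The light-stable phytochromes B, C and E were each below 15 FPKM. Phytochrome C (CmoCh19G008690, chromosome 19) had 12.6, 10.7 and 10.3 FPKM in SR and 9.55, 14.2 and 11.9 FPKM in SCK, with overlapping groups (adjusted p = 0.401). The 2 phytochrome B-like genes differed in level and in call. CmoCh06G015600 on chromosome 6 had 2.86, 2.60 and 2.35 FPKM in SR, each below the 4.24, 3.60 and 3.39 FPKM of SCK, and fell by 0.66 ± 0.17 on the log2 scale (adjusted p = 0.0454). Its more abundant namesake CmoCh14G016190 on chromosome 14 had 6.14, 8.40 and 5.37 FPKM in SR and 6.78, 6.56 and 6.80 FPKM in SCK. There the SR values were scattered around a tight SCK group, and the log2 change was -0.16 ± 0.16 (adjusted p = 0.538).

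The phytochrome E-like genes showed the same arrangement of 1 called and 1 uncalled copy. CmoCh18G004270 on chromosome 18 had 4.90, 4.18 and 4.03 FPKM in SR, below 6.03, 6.06 and 6.10 FPKM in SCK, and fell by 0.61 ± 0.13 (adjusted p = 0.0304). CmoCh13G005960 on chromosome 13 had 8.47, 7.18 and 6.40 FPKM in SR, within the range of 9.02, 5.50 and 6.66 FPKM in SCK (adjusted p = 0.831). Its log2 change was -0.08 with TMM scaling and 0.05 with library totals, and it was 0.01 without SR replicate 3 and 0.17 without SCK replicate 1. Together the 7 phytochrome genes summed to 74.2, 74.7 and 61.7 FPKM in SR and 75.7, 76.0 and 75.6 FPKM in SCK. SR replicate 3 was the library whose sum stood furthest from the rest. These sums carry no TMM scaling. In the fit, which does, each of the 6 tested phytochromes had a log2 change below 0, with a median of -0.22. Both called phytochromes are low in level, at the 17.3rd and 28.7th percentile of tested genes, and both calls were lost in edgeR without any 1 of SR replicates 2 and 3 and SCK replicates 1, 2 and 3, with adjusted p = 0.0667 to 0.145. Limma on log2(FPKM + 1) called neither, and the phytochrome B-like call was also lost with library totals.

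**Figure D2:**
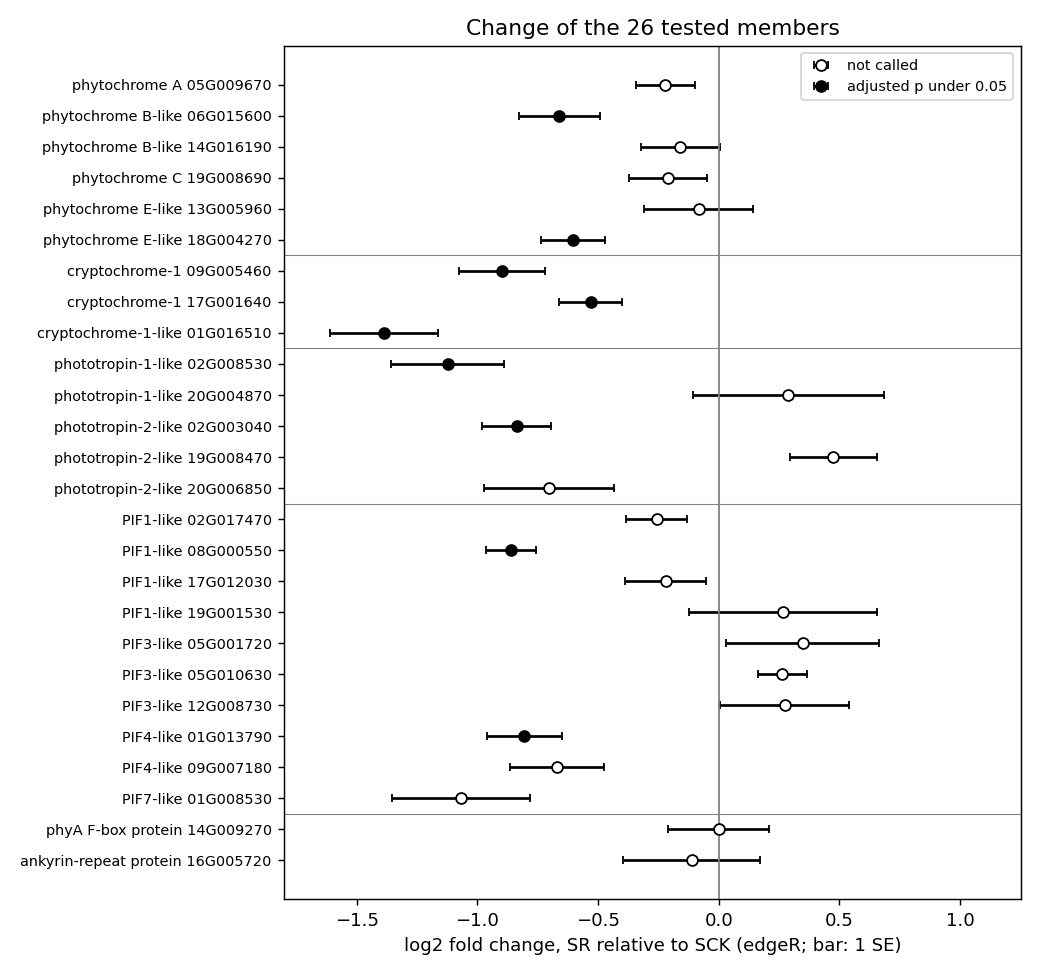
log2 fold change of SR relative to SCK for the 26 tested members, with bars of 1 SE and filled points for an adjusted p under 0.05. The 9 filled points lie between -1.39 and -0.53, and the 3 PIF3-like genes lie between 0.26 and 0.35 without a call.

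Each of the 3 tested cryptochrome genes fell in SR. The most abundant photoreceptor transcript of the set was a gene named cryptochrome-1 on chromosome 17 (CmoCh17G001640, 955191 to 962950, plus strand), at the 97.3rd percentile of tested genes. It had 115, 138 and 111 FPKM in SR and 164, 155 and 158 FPKM in SCK, without overlap, and fell by 0.53 ± 0.13 (adjusted p = 0.0403). The table assigns it the KEGG orthology entry K12119, whereas the other 2 tested cryptochrome genes carry K12118. By this entry it stands apart from both, though it shares its product name with 1 of them. Which annotation is right was not tested. The second gene named cryptochrome-1 (CmoCh09G005460, chromosome 9, 2606252 to 2609725) had 27.2, 31.3 and 26.5 FPKM in SR and 58.2, 38.8 and 46.1 FPKM in SCK. It fell by 0.90 ± 0.18 (adjusted p = 0.0243).

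Cryptochrome-1-like (CmoCh01G016510, chromosome 1, 12513159 to 12517001) had the largest fitted fall of the 26 tested members. It had 19.6, 31.7 and 16.3 FPKM in SR, against 53.5, 53.1 and 53.1 FPKM in SCK, a log2 change of -1.39 ± 0.22 (adjusted p = 0.0160). The SCK values differed by less than 1 FPKM while SR replicate 2 stood above the other SR libraries. Summed over the 4 cryptochrome genes, the level was 162, 201 and 154 FPKM in SR and 277, 247 and 257 FPKM in SCK. The share held by the chromosome 17 gene was 68.5% to 72.2% in SR libraries and 59.3% to 62.7% in SCK libraries. The fall of the chromosome 17 gene was not called in edgeR without any 1 of the 6 libraries (adjusted p = 0.0515 to 0.143), nor with library totals or limma. That of the chromosome 9 gene was not called without SR replicate 2, SR replicate 3 or SCK replicate 3 (0.0513 to 0.0926), and that of cryptochrome-1-like without SCK replicate 3 (0.0795).

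Cryptochrome DASH (CmoCh09G005060, chromosome 9), of the related photolyase branch that can repair DNA, was below 1 FPKM in each library and was not tested. It had 0.240, 0.215 and 0.0771 FPKM in SR and 0.728, 0.352 and 0.603 FPKM in SCK, so the groups did not overlap. With no filter on low values its adjusted p was 0.0859.

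Phototropins were split within the class. Phototropin-1-like on chromosome 2 (CmoCh02G008530, 5187055 to 5196986, minus strand) was the most abundant in SCK. It had 44.7, 74.4 and 48.0 FPKM in SR, below the 131, 92.8 and 104 FPKM of SCK, and fell by 1.12 ± 0.23 (adjusted p = 0.0265). Its namesake on chromosome 20 (CmoCh20G004870) had 23.4, 73.7 and 37.3 FPKM in SR and 41.7, 24.9 and 31.5 FPKM in SCK. SR replicates 1 and 2 lay at opposite ends there, 1 below and 1 above the whole SCK group, with a log2 change of 0.29 ± 0.40 (adjusted p = 0.653) that became -0.24 without SR replicate 2.

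The 3 phototropin-2-like genes also pointed in different directions. The least abundant (CmoCh02G003040, chromosome 2, 1529636 to 1541080) had 3.86, 3.73 and 3.10 FPKM in SR and 5.79, 6.11 and 5.50 FPKM in SCK, and fell by 0.84 ± 0.14 (adjusted p = 0.0173). CmoCh20G006850 on chromosome 20 had 11.7, 15.2 and 10.1 FPKM in SR and 24.7, 13.1 and 16.5 FPKM in SCK, with overlap and adjusted p = 0.121. CmoCh19G008470 on chromosome 19 had 15, 22 and 13.3 FPKM in SR, each above the 11.6, 10.8 and 10.4 FPKM of SCK. Its log2 change of 0.47 ± 0.18 did not pass (adjusted p = 0.119) and was 0.26 without SR replicate 2, and its end overlaps 37 bases of an AP-1 complex gene on the other strand. Among all tested genes, SR lay wholly above SCK in 27.9% and wholly below it in 12.7%.

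The phototropin sum was 98.7, 189 and 112 FPKM in SR and 215, 148 and 168 FPKM in SCK, so the groups overlapped through SR replicate 2. Within that sum the chromosome 2 phototropin-1-like gene held 39.4% to 45.3% in SR libraries and 61.0% to 62.8% in SCK libraries. The chromosome 20 phototropin-1-like gene held 23.8% to 39.0% in SR libraries and 16.9% to 19.4% in SCK libraries. The call of the chromosome 2 phototropin-1-like gene was lost without SR replicate 1, SR replicate 3, SCK replicate 1 or SCK replicate 3 (adjusted p = 0.0554 to 0.0969). The phototropin-2-like call was lost without SR replicate 3 or SCK replicate 3 (0.0628 and 0.0823).

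**Figure D3:**
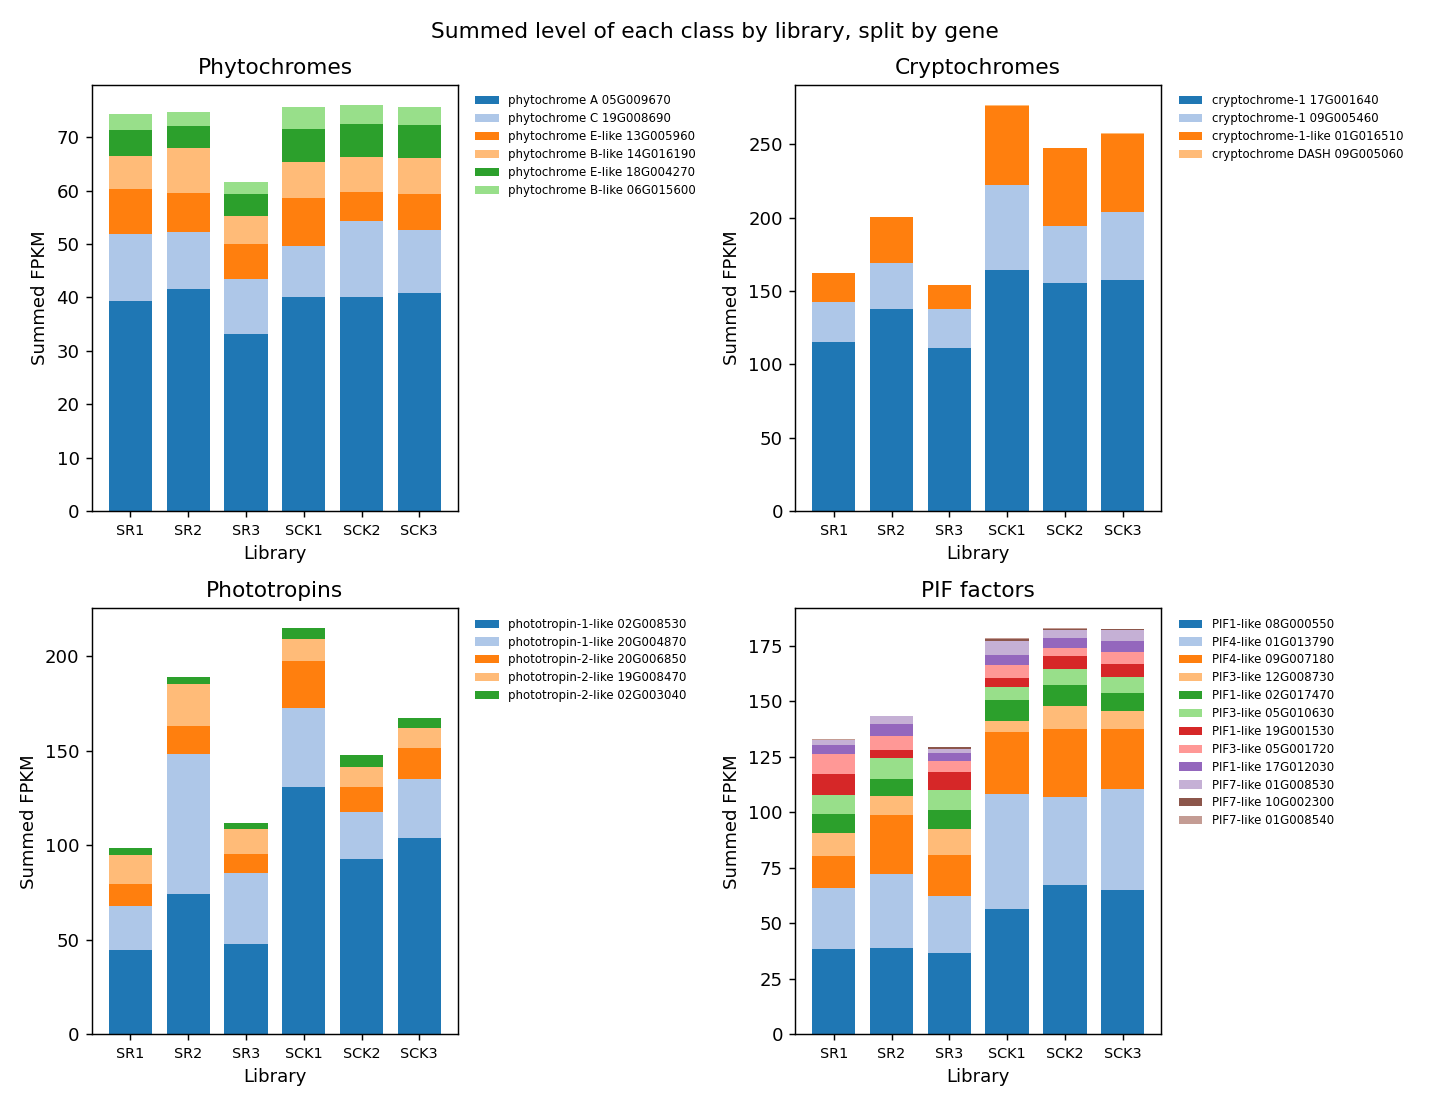
Summed FPKM of the phytochromes, cryptochromes, phototropins and PIF factors in each library, with SR libraries left of SCK libraries and each bar split by gene. The cryptochrome and PIF sums are lower in each SR library than in each SCK library. On this FPKM scale, which carries no TMM scaling, the phytochrome sum is level apart from SR replicate 3. The phototropin sum of SR replicate 2 (189 FPKM) lies inside the SCK range.

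Among PIF genes, 1 of 4 PIF1-like and 1 of 2 tested PIF4-like genes fell in edgeR. DESeq2 called 1 PIF1-like and 2 PIF4-like genes lower. Of the PIF3-like genes 0 of 3 passed in edgeR or DESeq2, with 1 higher at an unadjusted p under 0.05. Differences between the PIF types were not tested. PIF1, in Arabidopsis a repressor of seed germination and of chlorophyll synthesis in the dark, is named in 4 genes here. The most abundant PIF transcript was the PIF1-like gene on chromosome 8 (CmoCh08G000550, 341064 to 344740, plus strand), at 38.4, 38.8 and 36.6 FPKM in SR and 56.5, 67.2 and 64.8 FPKM in SCK. The SR values lay within 3 FPKM of each other and well below SCK, and the fall was 0.86 ± 0.10 (adjusted p = 0.0116), the smallest adjusted p of the members. The other 3 PIF1-like genes, on chromosomes 2, 17 and 19, averaged 8.14, 4.47 and 7.01 FPKM in SR and 8.86, 4.72 and 5.39 FPKM in SCK. Their groups overlapped (adjusted p = 0.199, 0.402 and 0.674), and the log2 change of the chromosome 19 gene turned from 0.27 to -0.07 without SR replicate 1. The chromosome 17 gene overlaps 682 bases of an S-protein homolog gene on the other strand that stayed below 0.1 FPKM.

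PIF4 and PIF7 promote hypocotyl elongation in Arabidopsis in warmth and in shade. The PIF4-like gene on chromosome 1 (CmoCh01G013790, 10848090 to 10861197, plus strand) had 27.4, 33.2 and 25.9 FPKM in SR, below the 51.7, 39.6 and 45.7 FPKM of SCK. It fell by 0.81 ± 0.16 (adjusted p = 0.0223). The PIF4-like gene on chromosome 9 (CmoCh09G007180) had 14.6, 26.8 and 18.2 FPKM in SR and 28.1, 30.6 and 27.0 FPKM in SCK. SR replicate 2 nearly reached the lowest SCK value, and the log2 change of -0.67 ± 0.20 was not called (adjusted p = 0.0626). Leaving out 1 library gave 0.0274 without SR replicate 2 and 0.101 to 0.182 without each of the others. DESeq2 called this gene with all libraries (adjusted p = 0.0145) but not without SCK replicate 3 (0.0601). Limma on log2(FPKM + 1) did not call it (0.136).

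PIF7-like transcripts were scarce. The only tested one (CmoCh01G008530, chromosome 1, 4536708 to 4543678, minus strand) had 2.14, 3.41 and 2.04 FPKM in SR and 6.09, 3.63 and 4.57 FPKM in SCK. Its log2 change of -1.07 ± 0.29 lay just outside the threshold (adjusted p = 0.0506). Leaving out 1 library gave 0.0496 without SR replicate 2 and 0.0560 to 0.155 without each of the others. DESeq2 called it (0.00472), and limma on log2(FPKM + 1) did not (0.0725). A second PIF7-like gene (CmoCh01G008540) lies on the opposite strand over 5808 bases of it. Whether counting used strand is not stated in the sources used here, so reads of the 2 genes may not be separable. That gene and another PIF7-like gene on chromosome 10 (CmoCh10G002300) were at 0.107 to 0.261 and 0.0859 to 0.591 FPKM in SR and at 0.184 to 0.617 and 0.558 to 1.08 FPKM in SCK, and were not tested.

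PIF3, in Arabidopsis the first PIF found to bind phytochrome, is named in 3 genes, and each averaged higher in SR without a call. CmoCh05G010630 on chromosome 5 had 8.49, 9.36 and 9.03 FPKM in SR, each above the 6.01, 7.26 and 7.13 FPKM of SCK, with a log2 change of 0.26 ± 0.10 (adjusted p = 0.124). CmoCh12G008730 on chromosome 12 had 10.3, 8.51 and 11.8 FPKM in SR and 4.93, 10.5 and 7.87 FPKM in SCK (adjusted p = 0.514), and its log2 change of 0.27 was 0.05 without SCK replicate 1. CmoCh05G001720 on chromosome 5 had 9.07, 6.26 and 4.8 FPKM in SR and 5.66, 3.35 and 5.40 FPKM in SCK (adjusted p = 0.485), and its log2 change of 0.35 was 0.02 without SR replicate 1 and 0.13 without SCK replicate 2. Groups overlapped in the last 2 genes. The 3 PIF3-like genes summed to 27.9, 24.1 and 25.6 FPKM in SR and 16.6, 21.1 and 20.4 FPKM in SCK, that is 16.8% to 21.0% and 9.29% to 11.6% of the PIF total. The whole PIF sum was 133, 143 and 129 FPKM in SR and 179, 183 and 183 FPKM in SCK.

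The PIF1-like call on chromosome 8 was lost in edgeR without SCK replicate 3 (adjusted p = 0.0749), and the PIF4-like call on chromosome 1 without SR replicate 3 or SCK replicate 3 (0.0838 and 0.0948). The F-box protein (CmoCh14G009270, chromosome 14), whose Arabidopsis counterpart dampens phytochrome A signalling, had 10.4, 7.46 and 8.63 FPKM in SR and 6.90, 7.85 and 9.57 FPKM in SCK. The ankyrin-repeat protein (CmoCh16G005720, chromosome 16) had 4.20, 3.61 and 4.38 FPKM in SR and 2.84, 5.64 and 3.61 FPKM in SCK. Groups overlapped in both genes, with adjusted p = 0.9997 and 0.818.

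Library differences within SR ran through the set. SR replicate 2 had the highest SR value in 15 of the 26 tested members and SR replicate 3 the lowest in 17. Among the 9 called members SR replicate 3 was the lowest SR library in 8 and SR replicate 2 the highest in 6, so SR replicate 2 was often the SR library nearest to SCK. The median coefficient of variation over tested members was 15.2% in SR and 12.5% in SCK, next to 15.9% in SR and 13.9% in SCK over all tested genes.

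Ratios of same-named genes were compared within each library, where scaling between libraries cancels. For phototropin-1-like, the chromosome 2 gene stood at 1.91, 1.01 and 1.29 times the chromosome 20 gene in SR and at 3.14, 3.72 and 3.29 times in SCK. The balance between the 2 copies was therefore near even in SR replicate 2 and at least 3-fold in each SCK library. The mean log2 ratio over all SR libraries minus that over all SCK libraries was -1.32. For phytochrome B-like, the ratio of the chromosome 6 to the chromosome 14 gene was 0.466, 0.309 and 0.438 in SR and 0.625, 0.549 and 0.498 in SCK. For phytochrome E-like, the chromosome 13 to chromosome 18 ratio was 1.73, 1.72 and 1.59 in SR and 1.5, 0.908 and 1.09 in SCK.

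The 2 genes named cryptochrome-1 differ in KEGG orthology entry, so this pair rests on the name alone. Their chromosome 9 to chromosome 17 ratio was 0.237, 0.227 and 0.238 in SR and 0.355, 0.250 and 0.293 in SCK. In these 4 pairs SR and SCK ratios did not overlap, and each gave p = 0.10 in an exact two-sided permutation test, the smallest that 3 against 3 libraries allow, so the design cannot reach 0.05 (adjusted over 5 pairs, p = 0.125). The PIF4-like genes kept overlapping ratios of 1.88, 1.24 and 1.42 in SR and 1.84, 1.29 and 1.69 in SCK (exact permutation p = 0.80). Each of the 5 pairs holds a gene called lower above from the same values, so the ratios are no separate evidence. How often ratios of other same-named genes differ without overlap was not counted. Pairs share a product name only, and how the authors divided reads between similar copies is not stated in the sources used here.

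**Figure D4:**
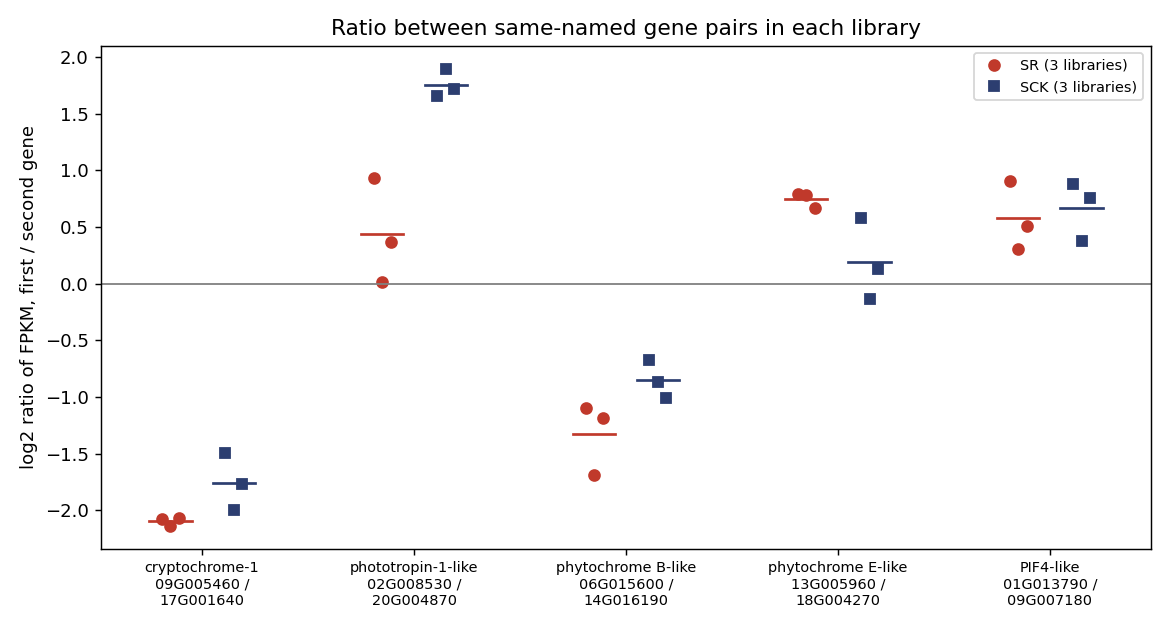
log2 ratio of FPKM between the 2 genes of each same-named pair in each library, with SR circles left of SCK squares and a line at each group mean. The phototropin-1-like pair shows the widest gap, with means of 0.44 in SR and 1.76 in SCK, and the PIF4-like pair overlaps.

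Genes that work with these receptors were counted from lists of product names, and the counts stand beside 7.16% of all tested genes called lower and 7.2% called higher. Chromophore synthesis supplies the bilin that phytochromes carry, and 0 of its 2 tested genes passed, with 1 at an unadjusted p under 0.05 and 1 called higher by DESeq2. COP1 and SPA proteins form the ubiquitin ligase that represses light responses and is inhibited by active photoreceptors. In that list 5 of 15 tested genes fell and 0 rose, with a median log2 change of -0.43. The list also holds genes named COP1-interacting protein 7 and COP1 SUPPRESSOR 2. Its counts and median are therefore not those of COP1 and SPA genes alone. COP1-like (CmoCh18G005580) had 7.70, 5.66 and 6.72 FPKM in SR and 11.1, 10.8 and 10.1 FPKM in SCK (log2 change -0.80 ± 0.16, adjusted p = 0.0251). A second COP1 gene (CmoCh20G002560) had a log2 change of -0.59 ± 0.13 and SPA1-RELATED 3-like (CmoCh01G012620) one of -0.64 ± 0.14. The COP1 genes CmoCh02G000610 and CmoCh02G000620 were not called in edgeR (adjusted p = 0.0936 and 0.536). The smallest adjusted p of the list (0.0210) belonged to COP1-interactive protein 1 (CmoCh04G007470), which is no part of the ligase. HY5, the bZIP factor that COP1 marks for degradation, is named in 3 tested genes. Of these 0 passed in edgeR, with 2 at an unadjusted p under 0.05 and 2 called lower by DESeq2.

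Partners of the blue-light receptors included the largest fitted fall among the listed genes. BIC1 in Arabidopsis blocks the activation of cryptochrome 2. A BIC1-like gene (CmoCh14G003000) had 1.24, 0.328 and 0.849 FPKM in SR and 2.30, 3.47 and 3.69 FPKM in SCK, a log2 change of -2.06 ± 0.52 (adjusted p = 0.0437), and the other 2 tested BIC1-like genes were not called. In the phototropin signalling list 3 of 10 tested genes fell and 0 rose, with a median of -0.59. Root phototropism protein 2 (CmoCh01G007710), whose Arabidopsis namesake binds phototropin 1, had 81.7, 103 and 71.7 FPKM in SR and 278, 207 and 223 FPKM in SCK. It fell by 1.61 ± 0.19 (adjusted p = 0.0116), the same direction as the phototropin-1-like gene on chromosome 2. Root phototropism protein 3-like (CmoCh16G002590) fell by 0.75 ± 0.17. Other tested root phototropism protein 3 genes were not called. The most abundant of them (CmoCh04G004250) averaged 278 FPKM in SR and 276 FPKM in SCK. PHYTOCHROME KINASE SUBSTRATE 3-like (CmoCh13G011790), of a family that links phytochromes and phototropins in Arabidopsis, had 7.05, 13.1 and 8.25 FPKM in SR and 29.8, 19.5 and 22 FPKM in SCK (log2 change -1.48 ± 0.27).

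The list of phytochrome partners and far-red response genes, which shares the PHYTOCHROME KINASE SUBSTRATE genes, had 4 falls and 0 rises among 18 tested, with a median of -0.27. Its other falls were 2 scarecrow-like PAT1 genes, CmoCh02G002240 and CmoCh16G009830, with log2 changes of -1.17 ± 0.26 and -0.43 ± 0.10. PAT1 in Arabidopsis is a GRAS protein of phytochrome A signalling. The remaining fall was a PAT1 homolog 1-like gene (CmoCh04G006650, -0.83 ± 0.12), named after an mRNA decapping factor outside that pathway. FAR-RED ELONGATED HYPOCOTYL 3 and FAR-RED IMPAIRED RESPONSE 1 genes were not called.

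Of 21 tested genes taken as shade response markers, 3 fell and 0 rose, with a median of -0.01. The falls were HAT3.1 and 2 HAT5-like genes (CmoCh04G004960, CmoCh14G006540 and CmoCh13G009560), homeobox genes outside the class induced by shade. Uncalled HAT3.1 and HAT5 genes stand in the list too, so its counts and median are not those of shade-induced genes alone. Genes named HAT3, HAT4, HAT9 and HAT22 were not called. Chosen after their values were seen, a PAR2-like gene (CmoCh11G020370) and PAR2 (CmoCh04G003020) had adjusted p = 0.0533 and 0.0579. PAR2-like was at 1.79, 20.4 and 18.3 FPKM in SR and 1.65, 1.04 and 1.78 FPKM in SCK, so SR replicate 1 was at the SCK level. Another PAR2-like gene (CmoCh04G016540) had 4.89, 20.9 and 33.1 FPKM in SR and 32.7, 4.97 and 19.1 FPKM in SCK (adjusted p = 0.933). At an unadjusted p under 0.05, 0 genes were higher in the COP1 and SPA, phototropin and far-red lists and 2 among the shade markers, against 17.3% of all tested genes. DESeq2 called the same numbers higher, against 13%. Without SCK replicate 3 edgeR called 0 genes of these lists. DESeq2 then called 5 of the COP1 and SPA list, 4 of the phototropin list, 5 of the far-red list and 3 of the shade markers lower, and 2 of the shade markers higher, against 7.77% of all tested genes lower and 7.57% higher. It called 0 genes of the HY5, cryptochrome partner and chromophore lists, where DESeq2 with all libraries had called 2 lower, 1 lower and 1 higher.

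**Figure D5:**
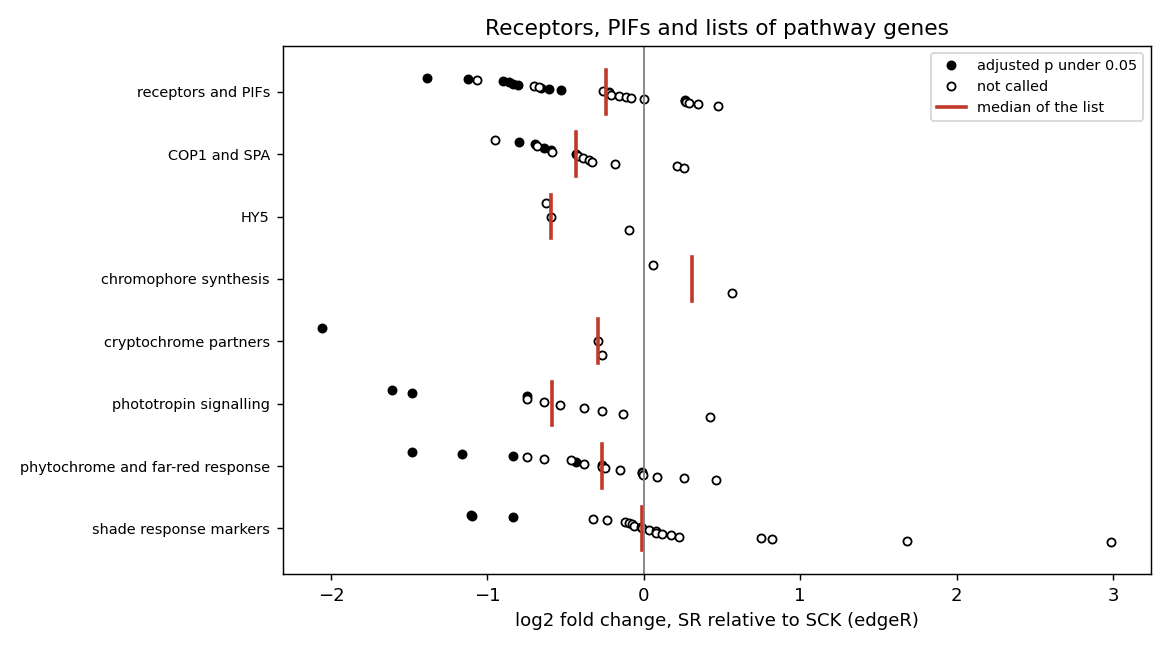
log2 fold change of SR relative to SCK for the 26 tested members (top row, labelled receptors and PIFs) and for the tested genes of each list, filled for an adjusted p under 0.05, with the list median in red. Filled points lie below 0 in each row that has any. The shade response list, which also holds HAT3.1 and HAT5 genes, has a median of -0.01.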

How the data were processed

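Poly(A) RNA of 6 hypocotyl samples went into a stranded library kit, per the labels' protocols. Counts and FPKM values per gene stand in 1 table the authors deposited, per the file headers. HISAT and StringTie are named in the submitters' processing notes. The sources used here do not give versions, genome build, annotation, strand use or how similar copies were handled. Positions and products are those of the table. The deposited FPKM is 0.0001 wherever the count is 0. The count 4 occurs 1350 times, against 567 for 3 and 516 for 5, so a read pair may be worth several deposited counts, and dividing by 4 was tried. A further 6 columns of counts match no sample and were not used.

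Genes reaching 1 FPKM in 3 or more libraries were tested. This kept 26 of 30 members. The filter could admit a gene through 1 group alone, but each tested member reached 1 FPKM in all 6 libraries. The test was edgeR 4.0.16 (R 4.3.3) with TMM factors, group as the only term and all 6 libraries. SE is the fold change over the root of F. Pairs of members were those sharing a product name. Alternatives used DESeq2 1.42.0 and limma 3.58.1 on log2(FPKM + 1). The code was tested on simulated data, in which DESeq2 made a larger share of false calls than edgeR. Named genes are all members, and up to 4 called genes per list with the smallest adjusted p. The PAR2 genes and other uncalled list genes were added after their values were seen. Members and lists were chosen with earlier results of these data known.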

Additional observations from a re-analysis of the deposited data

How the results depend on the processing

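The 9 called members kept their sign in each of 17 alternatives that tested them. Leaving out a library could not turn that sign, since their groups do not overlap. Calls over all tested genes were 3375, with 6026 by DESeq2, 0 with the replicate number as a block, and 0 to 3437 in edgeR without 1 library, namely 1981 and 542 with SR replicate 2 or 3 left out, and 1576, 1667 and 0 with SCK replicate 1, 2 or 3 left out. Members called lower were 9, and 0 to 7 without 1 library, with 2 without SR replicate 3, 5 without SCK replicate 1 and 0 without SCK replicate 3. The count was 3 by limma on log2(FPKM + 0.1) and 0 with the replicate block. Deviations from the group mean correlated at -0.146, -0.249 and 0.088 between same-numbered libraries, and at -0.143 to 0.263 between differently numbered ones. With 3 libraries per group these values cannot decide whether libraries of the same number were handled together. Without SCK replicate 3, 2 alternatives chosen after seeing the data gave 0 members and 9 genes in all by limma, and 10 members and 3607 genes in all by DESeq2. Members called lower were 7 with library totals alone, where 2602 genes rose and 1155 fell, 8 under each other filter, 6 by limma on log2(FPKM + 1), 9 with RLE size factors or counts divided by 4, and 11 by DESeq2. Genes called in either direction numbered 2981 with no filter and 3115 with a filter at 5 FPKM. They numbered 3361 with RLE size factors, 3475 with counts divided by 4 and 3276 by limma on log2(FPKM + 1). Members called higher were 0 in each alternative. The cause of these differences was not tested. With no filter, 3 of the 4 untested members had adjusted p = 0.0859 to 0.460, and the phytochrome A-like gene at a count of 0 could not be judged at this depth.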
